A study of Mus musculus with 3 samples.

Results

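The genes described here encode the cornified envelope and its neighbours in the epidermal differentiation complex, the gene cluster that holds many of them. They were chosen by name on the array: every Sprr gene, every Lce gene and 15 further genes of the envelope. The choice took 52 of 41174 probes, which stand for 42 of 28149 gene names. Chosen with earlier results of the same arrays in view, they are described without any test. The samples were 3, of primary cells of the mouse kidney that the submitters call mPTECs. They came from 1-month-old males and were measured straight after isolation (day 0), after 1 day on a culture dish (day 1) and after 3 days (day 3). Both cultures shared a medium with insulin, transferrin, selenium, hydrocortisone and 1% serum, which the day 0 cells did not see. Each day was 1 Cy3-labelled sample on 1 Agilent array, and the labels do not say how many animals gave the cells.

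The cornified envelope is the cross-linked protein shell of the outer cells of skin and other stratified squamous epithelia. Involucrin and the plakins envoplakin and periplakin form its first scaffold under the cell membrane, transglutaminases join further proteins to it, and loricrin, the small proline-rich (Sprr) proteins and the late cornified envelope (Lce) proteins are the main building blocks. Most of their genes lie side by side in the epidermal differentiation complex, which is on chromosome 3 in the mouse. The kidney tubule is a simple epithelium and forms no cornified envelope.

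A level below is the processed signal of a probe divided by the 75th percentile of its array, as in the authors' own table, so a level of 1 equals that percentile. That percentile was 1184, 1509 and 1515 intensity units on days 0, 1 and 3. The level of one probe was not set against that of another, because each probe binds with its own strength, and a sum over a list is led by its brightest probes. Of 156 values of member probes, 145 were well above background by the scanner software's flag, and that software's own error for them had a median of 10.03% of the signal and a highest value of 17.5%. Each member probe had 1 spot an array. Replicate spots of other probes had a median spread of 0.14 (log2) within an array. For a ratio of one spot to another this gives 0.20, or 1.15-fold, and differences between arrays are not part of it. With 1 array a day there was no spread between samples, so the ratios describe these 3 arrays. Scaling to spike-in controls in place of the percentile would add 0.23 to every log2 ratio of day 1 over day 0 and 0.41 to every one of day 3 over day 0, and scaling to reference genes would take away 0.31 and 0.25.

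A limited set of the members was far higher in culture than in the fresh cells, while many others differed by less than 2-fold. Of 41 member genes well above background on day 1 or day 0, 10 were at least 4-fold higher on day 1, and Evpl alone was lower by that much, where 2.78% of all 25225 genes were at least 4-fold higher and 4.57% lower. On day 3 against day 0, 11 of 41 were at least 4-fold higher and 0 lower, and over all 25578 genes these shares were 4.31% and 8.07%. At a 2-fold limit, 11 members were higher and 3 lower on day 1 against day 0 (11.7% and 15.3% of all genes), and 16 were higher and 3 lower on day 3 against day 0 (14.2% and 24.1%). The median log2 ratio of the members was 0.25 on day 1 and 0.44 on day 3, beside -0.16 and -0.21 for all genes. Altogether 12 genes were at least 4-fold above day 0 on either day, 9 of them on both: Crct1, Sprr1a, Sprr2d, Sprr2f, Sprr2h, Ivl, Sbsn, Ppl, Lce1g, Lce1h, Lce1i and Lce3c. In bulk RNA a larger number of cells expressing a gene and more of its RNA in each cell cannot be told apart.

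**Figure D1:**
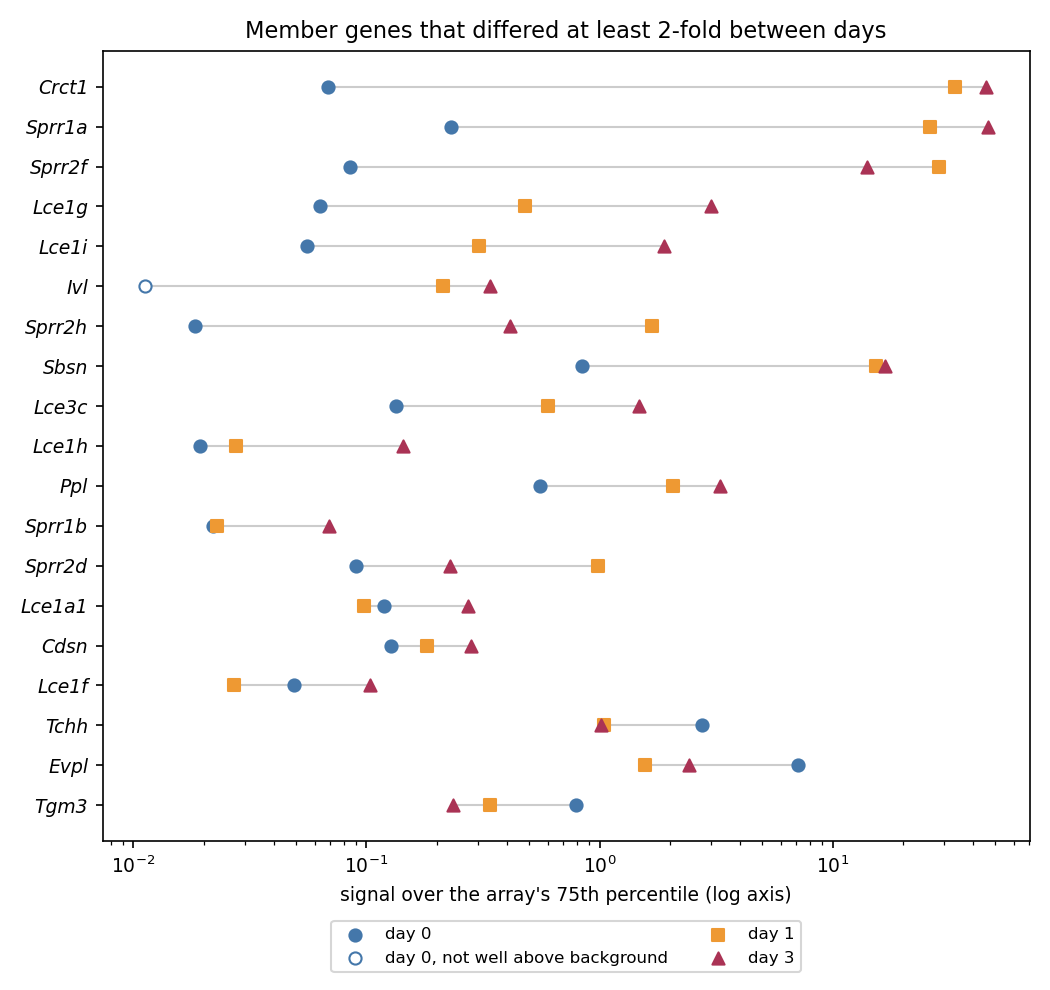
Levels of the 19 member genes that differed at least 2-fold between any days, as signal over the 75th percentile of the array on a log axis, with a circle for day 0, a square for day 1 and a triangle for day 3, 1 array each; the open circle of Ivl was not well above background. Crct1 stood at 0.0682, 33.5 and 45.5 on days 0, 1 and 3, and Tgm3 at 0.793, 0.339 and 0.235.

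The Sprr2 probes gave unlike readings. The Sprr2 proteins are short chains built largely of a proline-rich repeat, and the genes are so alike that a probe in the repeat can share long stretches with its neighbours' probes. The following probes contain the 8 bases CCTTGTCC, in capitals, and are shown because their readings on both days of culture lay within 2-fold of day 0.
Sprr2b probe: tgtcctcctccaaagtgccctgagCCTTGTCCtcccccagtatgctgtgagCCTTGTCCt
Sprr2e probe: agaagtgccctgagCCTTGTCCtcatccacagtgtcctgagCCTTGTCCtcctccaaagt
Sprr2g probe: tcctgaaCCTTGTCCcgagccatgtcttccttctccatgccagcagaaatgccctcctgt
Sprr2j-ps probe: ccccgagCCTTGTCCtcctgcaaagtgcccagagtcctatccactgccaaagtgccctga
Sprr2k probe: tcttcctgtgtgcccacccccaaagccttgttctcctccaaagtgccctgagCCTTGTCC
The probes of Sprr2d, Sprr2f and Sprr2h lack this run. Their first 30 bases are given for contrast.
Sprr2d probe: ttgccaaaaactctcaatcacctttggttt
Sprr2f probe: atgggtcttgttccattgttcagtatgaca
Sprr2h probe: tgccatagtagtggtcattgtttcttattt

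The run was picked out after the values had been seen. It stands in 5 of the 52 member probes, all of them Sprr2, and in 0.214% of all 41174 probes on either strand. The probes of Sprr2b and Sprr2k have a stretch of 28 identical bases in common, and those of Sprr2e and Sprr2b one of 22. No stretch over 15 bases was shared with a probe of another gene by the probes of Sprr2g and Sprr2j-ps, which have the run, or by those of Sprr2d, Sprr2f and Sprr2h, which lack it.

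Sprr2f, whose probe lies at chr3:92170259-92170318 (mm9), had levels of 0.0853, 28.5 and 14.04 on days 0, 1 and 3. It was 334-fold higher on day 1 than on day 0 (log2 8.38, and 7.70 under normexp, a model-based background correction) and ranked 3 among all genes, and on day 3 it was 165-fold above day 0 and 2.03-fold below day 1. Sprr2h, at chr3:92191186-92191245, had levels of 0.0183, 1.68 and 0.415 on these days. Its ratio to day 0 was thus 91.8-fold on day 1 and 22.7-fold on day 3, from a day 0 level close to the lowest well above background there, 0.0114. Those ratios are 6.52 and 4.50 on the log2 scale, and with normexp they were 4.50 and 2.66. Sprr2d, at chr3:92144721-92144780, stood at 0.0903, 0.986 and 0.229 and was 10.9-fold higher on day 1 than on day 0, then 4.31-fold lower on day 3 than on day 1. All 3 were highest on day 1 and lower on day 3, and no other member at least 4-fold above day 0 ran that way.

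The 5 probes with the run showed smaller differences. The Sprr2b probe read 3.11, 3.72 and 3.01 on days 0, 1 and 3 and the Sprr2e probe 2.17, 3.26 and 2.52. The Sprr2k probe read 2.84, 3.41 and 3.15. Sprr2g and Sprr2j-ps are both transcribed pseudogenes in RefSeq. The Sprr2g probe read 1.08, 1.71 and 1.46, and the Sprr2j-ps probe 1.72, 2.06 and 1.12. All 5 were highest on day 1, with log2 ratios to day 0 between 0.25 and 0.67 on that day, and Sprr2j-ps had the largest difference between days 3 and 1, a log2 ratio of -0.88. Lacking the run did not go with a large ratio in every case. Sprr2a1 had 2 probes without the run: the brighter one read 54.9, 86.1 and 81.9, which left its signal bright on all days, and the dimmer one read 0.206, 0.158 and 0.247. The brighter one shared 19 bases with a probe listed under another name, and the dimmer one at most 12. Probes were set only against other probes, not against transcripts. Whether RNA of other Sprr2 genes bound to any Sprr2 probe, with or without the run, was not tested. Levels of these close paralogs are uncertain for that reason.

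**Figure D2:**
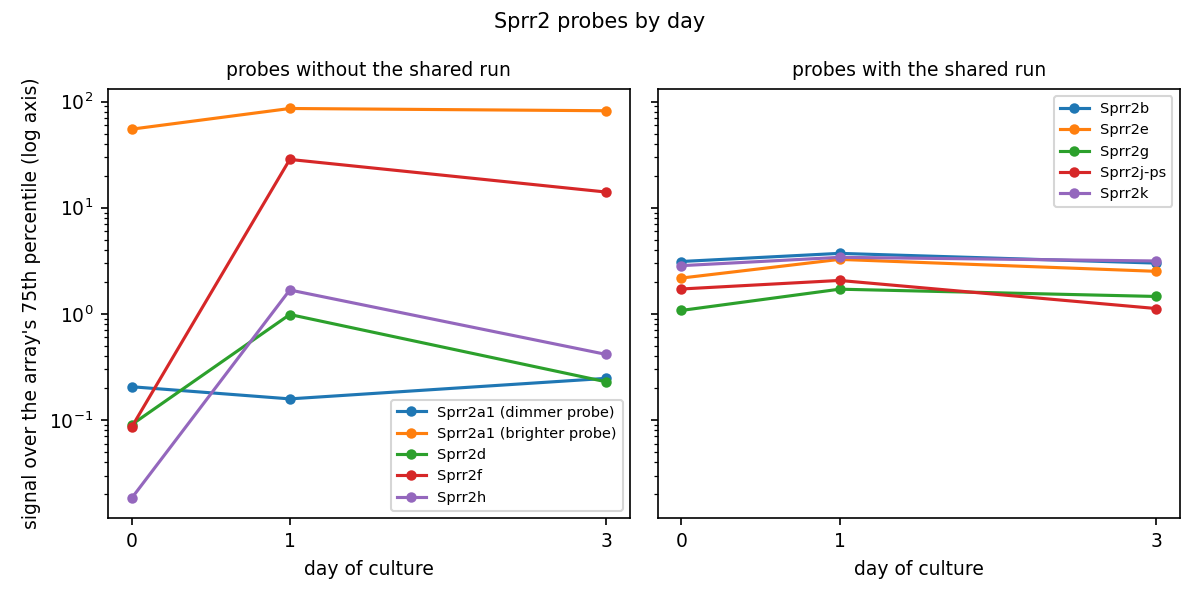
Level of each Sprr2 probe, as signal over the 75th percentile of the array on a log axis, by day of culture, 1 array a day; the left panel holds probes without the 8-base run and the right panel those with it. Sprr2d, Sprr2f and Sprr2h peak on day 1 in the left panel, while the 5 lines of the right panel stay between 1.08 and 3.72.

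Of the other Sprr genes, Sprr1a had the largest ratios. Its product is an envelope precursor that is also known from stressed and injured tissues outside the skin. Sprr1a had levels of 0.230, 26.1 and 46.3 on days 0, 1 and 3, which made it 113-fold higher on day 1 than on day 0 and 201-fold higher on day 3 than on day 0. Unlike the 3 Sprr2 genes above, it was also higher on day 3 than on day 1, by 1.78-fold. Its close relative Sprr1b, a keratinocyte gene, stayed dim at 0.0220, 0.0229 and 0.0687, 3.13-fold higher on day 3 than on day 0. Sprr3 and Sprr4, with levels up to 0.0647 and 0.117, differed by less than 2-fold between any days. Of the 13 Sprr genes, 4 were at least 4-fold higher on day 1 than on day 0, 3 on day 3, and none was at least 4-fold lower than on day 0.

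The Lce genes encode late components of the envelope, laid down in the last steps of keratinocyte maturation. Of 14 measured, 3 were at least 4-fold higher on day 1 than on day 0 and 4 on day 3, and 8 lay within 2-fold of day 0 on day 3. Each of the 3 day 1 counts was lost under a setting, with log2 ratios of 1.38 for Lce1g as the mean of its probes and of 1.72 for Lce1i and 1.80 for Lce3c under normexp. On day 3 against day 0 the lowest log2 ratios of Lce1g, Lce1i and Lce3c over 10 alternative settings were 2.49, 4.16 and 2.86. Lce1g read 0.0630, 0.477 and 3.00 on days 0, 1 and 3 by its brighter probe, a 47.7-fold difference between day 3 and day 0. Its other probe, at chr3:92554185-92554244 beside chr3:92554289-92554348 (mm9), read 0.0982, 0.0880 and 0.0653, so it was lower on day 3 than on day 0 where the first was higher. Lce1i read 0.0558, 0.304 and 1.90 and was 34.03-fold higher on day 3 than on day 0. Lce1h read 0.0193, 0.0275 and 0.143, hence 7.45-fold above day 0 on day 3 and 1.43-fold on day 1. Under normexp the log2 ratio of Lce1h for day 3 over day 0 was 1.22.

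Lce1g and Lce1i share a run of 17 bases between their probes, in capitals here, and 30 bases of each probe are shown because both readings were higher on each later day.
Lce1g probe: acaatgaCCATTTGCCTCTTTGTTataaat
Lce1i probe: gaaacgacaatgcCCATTTGCCTCTTTGTT
The probe of Lce1e shares 17 bases with that of Lce1i too, and its readings were 0.106, 0.0996 and 0.175. A part of such overlaps in the readings of Lce1g and Lce1i was not tested. Lce3c gave nearly the same answer by both of its probes, with log2 ratios of 3.46 and 3.41 for day 3 over day 0. Its brighter probe read 0.134, 0.599 and 1.48 on days 0, 1 and 3, an 11.02-fold difference between day 3 and day 0. Lce1a1 read 0.119, 0.0971 and 0.274 on these days and was 2.30-fold higher on day 3 than on day 0. Lce1f read 0.0488, 0.0271 and 0.104, so it was 1.80-fold lower on day 1 than on day 0, 2.12-fold higher on day 3 than on day 0 and 3.83-fold higher on day 3 than on day 1. Lce1a2, Lce1b, Lce1c, Lce1d, Lce1e, Lce1l, Lce1m and Lce3f made up the 8 within 2-fold of day 0.

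Every Lce gene at least 4-fold above day 0, unlike Sprr2d, Sprr2f and Sprr2h, was higher on day 3 than on day 1. Over all members, 3 genes were at least 4-fold higher on day 3 than on day 1, namely Lce1g (6.30-fold), Lce1i (6.25-fold) and Lce1h (5.21-fold), and 2 were at least 4-fold lower, Sprr2d and Sprr2h. For all 25293 genes of that comparison the shares were 1.29% and 1.19%. At 2-fold, 7 members were higher and 3 lower on day 3 than on day 1, beside 6.21% and 9.34% of all genes. The values of Sprr2d and Sprr2h lay close to the limit: 4.31-fold and 4.05-fold lower. Of 10 alternative settings, 1 took Sprr2d and 5 took Sprr2h below 4-fold, and the day 3 over day 1 log2 ratio was 1.11 for Lce1g as the mean of its probes and 1.22 for Lce1h with normexp.

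Crct1 had the largest ratio of all members. It is a gene of the epidermal differentiation complex whose probe lies at chr3:92818192-92818251 (mm9). Its level of 0.0682 on day 0 was well above background, and it stood at 33.5 on day 1 and 45.5 on day 3. The ratio to day 0 ranked 1 among 25225 genes on day 1 and 2 among 25578 on day 3, at 491-fold and 668-fold (log2 8.94 and 9.38, and 8.19 and 8.43 with normexp). Ivl encodes involucrin, a scaffold protein of the envelope that is made early in keratinocyte differentiation. On day 0 its probe, with a reading of 0.0112, did not clear background, and it stood at 0.214 on day 1 and 0.338 on day 3. Set against the lowest day 0 level well above background, 0.0114, Ivl was 18.7-fold higher on day 1 and 29.6-fold higher on day 3. These ratios, 4.22 and 4.89 on the log2 scale, are limits only under the deposited background subtraction. With normexp the log2 ratios were lower, 1.81 and 2.58.

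Loricrin, the most abundant protein of the mature epidermal envelope, did not share these differences. Lor read 0.478, 0.661 and 0.726 on days 0, 1 and 3, and Cnfn, the gene of the envelope protein cornifelin, 0.367, 0.529 and 0.267. Both stayed within 2-fold of day 0 on both days of culture.

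The S100-fused type proteins, which include filaggrin, bundle keratin filaments or fill the envelope in late keratinocytes and hair follicles. None was at least 2-fold higher in culture. The probe named Flg, for the filaggrin gene, was not well above background on any day. A further probe, which the array lists under a transcript name and describes as filaggrin, was well above background on all days at 0.0391, 0.0351 and 0.0318, and the rule by gene name does not take it in. Hrnr (hornerin) had a highest level of 0.0287 and Rptn (repetin) one of 0.0217, both on day 0. Tchh, the gene of the hair follicle protein trichohyalin, read 2.76, 1.04 and 1.01 by its brighter probe and was 2.64-fold lower on day 1 and 2.73-fold lower on day 3 than on day 0. Its other probe was not well above background on any day.

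Neither cross-linking enzyme among the members was at least 2-fold higher than on day 0 at the percentile scale. Tgm1, the membrane-bound transglutaminase of keratinocytes, read 1.15, 0.996 and 1.92 on days 0, 1 and 3 and so stayed within 2-fold at that scale. Its log2 ratio for day 3 over day 0 was 0.75, to which spike-in scaling would add 0.41. Tgm3, the epidermal and hair follicle enzyme, read 0.793, 0.339 and 0.235 and was 3.38-fold lower on day 3 than on day 0. Tgm2, the broadly expressed tissue transglutaminase, read 38.4, 50.5 and 54.5. Of the 5 transglutaminases outside the members that were measured, none was at least 4-fold higher or lower on either day, and Tgm4, Tgm5 and F13a1 were 2.44-fold, 2.24-fold and 1.88-fold lower on day 3 than on day 0.

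The plakins, which anchor the envelope to keratin filaments and desmosomes, ran in opposite directions. Ppl, the periplakin gene, read 0.557, 2.06 and 3.29 by its brighter probe, 5.90-fold higher on day 3 than on day 0. The dimmer Ppl probe had log2 ratios of 1.44 on day 1 and 0.45 on day 3, and as the mean of both probes the day 3 value was 1.51. Evpl, the envoplakin gene, read 7.12, 1.57 and 2.42 and was 4.52-fold lower on day 1 and 2.94-fold lower on day 3 than on day 0. The dimmer Evpl probe gave the same direction, with log2 ratios of -1.96 and -1.23. The 2 products are partners in the first scaffold of the envelope.

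Among the secreted and corneodesmosomal proteins, Sbsn stood out. It encodes suprabasin, a secreted protein of upper epidermal layers. Sbsn read 0.844, 15.4 and 16.9 on days 0, 1 and 3, an 18.2-fold difference between day 1 and day 0 and a 20.0-fold difference between day 3 and day 0. Its second probe gave log2 ratios of 4.25 and 4.66, close to 4.19 and 4.32 from the first. Cdsn, the gene of the adhesion protein corneodesmosin, read 0.128, 0.182 and 0.282, 2.21-fold higher on day 3 than on day 0. Krtdap, a keratinocyte differentiation gene, had a log2 ratio of -0.25 for day 3 over day 0 by its brighter probe and -1.87 by the other.

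**Figure D3:**
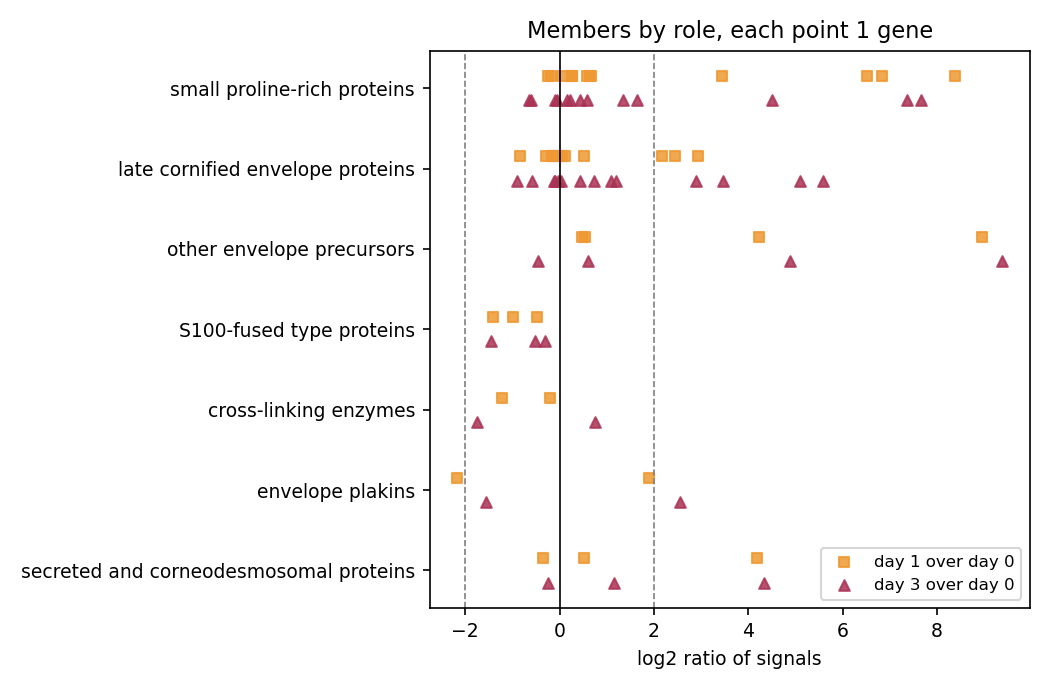
Log2 ratio of day 1 over day 0 (squares) and of day 3 over day 0 (triangles) for each member gene with a value, grouped by role, with broken lines at 4-fold; the values of Ivl, and that of Rptn for day 1, are bounds. Points beyond the right line are found among the Sprr, Lce, other precursor, plakin and secreted genes, and none among the S100-fused genes or the cross-linking enzymes.

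By position, the large ratios lay in separate places along the cluster, with genes that hardly differed between them. Between Sprr2d, Sprr2f and Sprr2h these were Sprr2e and Sprr2g, read by probes with the shared run, whose levels are uncertain. The chromosome 3 members span chr3:91884206-93252912 (mm9), 1369 kb with 34 member genes and 7 others on the array, beside the further filaggrin probe. In that span, 9 of 33 members were at least 4-fold higher on day 3 than on day 0, against 0 of 6 other genes, 1 of which was at least 4-fold lower. That gene was Smcp, a sperm mitochondrial protein gene that lies next to Ivl here and was 8.58-fold lower. Kprp, a keratinocyte gene between the Lce genes, was 2.01-fold higher, and the filaggrin relative Flg2 read 0.0576, 0.0441 and 0.0434. Lce1g, Lce1h and Lce1i are neighbours and were all at least 4-fold higher on day 3, whereas Crct1 stands between Lce3f and Lce1m, which had log2 ratios of -0.60 and -0.09.

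**Figure D4:**
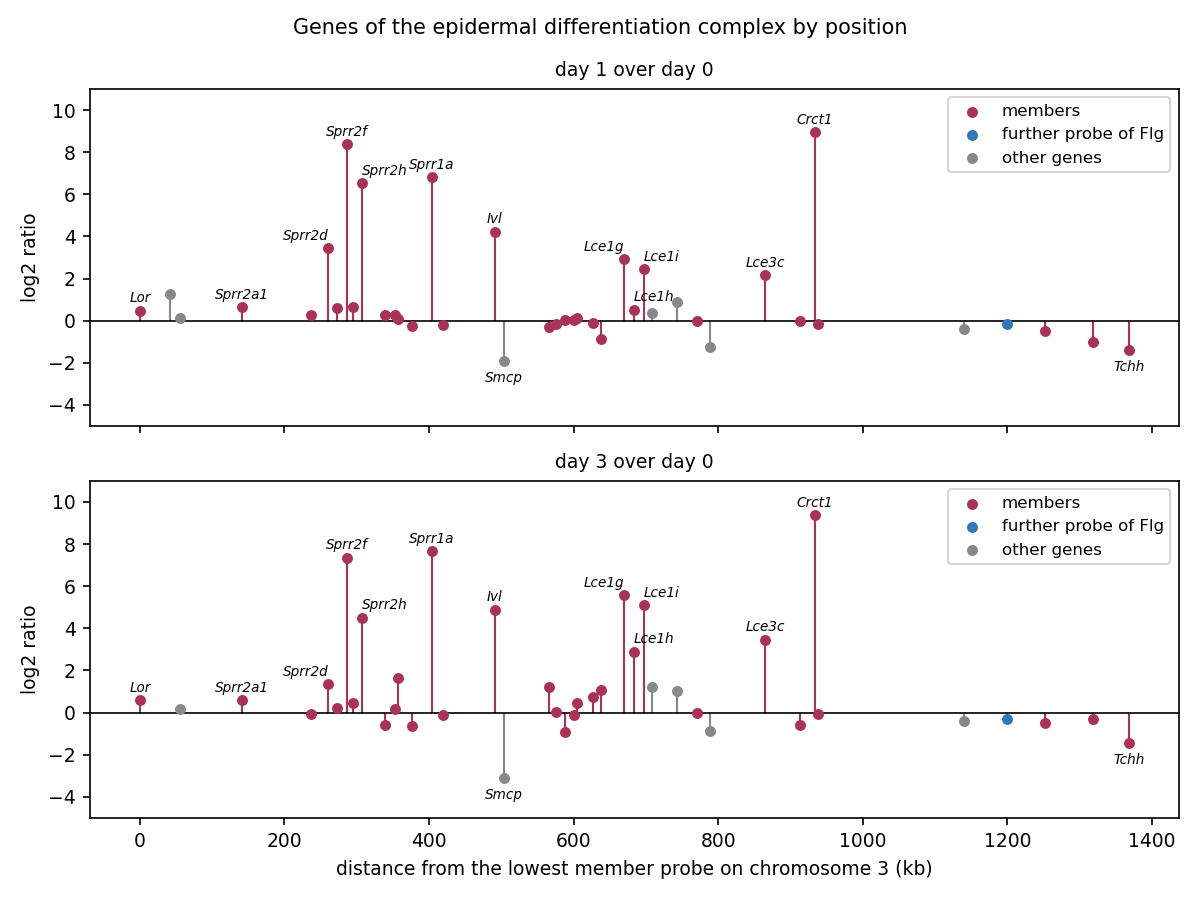
Log2 ratio of each gene by its distance from the lowest member probe on chromosome 3 in kb, above for day 1 over day 0 and below for day 3 over day 0, with members, the further Flg probe and other genes in different colours. The tallest lines are Crct1, Sprr2f and Sprr1a on both days, and Lce1g, Lce1h and Lce1i are taller in the lower panel.

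The sequence before the transcription start was examined for 36 member genes with an entry in RefSeq's promoter table (GRCm38.p6). The AP-1 motif, the binding sequence of Fos and Jun proteins, was searched as TGACTCA or its reverse TGAGTCA, and the TATA box as TATAAA or its reverse TTTATA, in the 250 bases before the start. An AP-1 motif stood in 10 of 38 member promoters (26.3%), against 4.46% of all 32851 promoters, and a TATA motif in 18 (47.4%), against 12.4%. Of the 10 promoters whose genes were at least 4-fold above day 0, 5 held the AP-1 motif, and of the other 28, 5. Those of the other 28 include Sprr2b, Sprr2e and Sprr2k, whose levels are uncertain. For the TATA motif the counts were 5 of 10 (50%) and 13 of 28 (46.4%). Crct1 and Ppl, also at least 4-fold above day 0, had no promoter entry. These counts are descriptions, since the Sprr2 promoters are related to one another. Pairs of them were from 53.9% to 90.3% identical over the aligned bases. The sequences below show both motifs in capitals in 5 genes with large ratios and in Sprr2e, each as the 220 bases before the start.
Sprr1a promoter, chr3:92485882-92486101, minus strand: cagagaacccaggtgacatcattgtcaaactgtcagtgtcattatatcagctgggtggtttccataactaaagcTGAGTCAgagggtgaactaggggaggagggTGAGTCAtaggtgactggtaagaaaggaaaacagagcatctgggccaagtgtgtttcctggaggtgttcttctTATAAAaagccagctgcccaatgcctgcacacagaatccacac
Sprr2d promoter, chr3:92338920-92339139, plus strand: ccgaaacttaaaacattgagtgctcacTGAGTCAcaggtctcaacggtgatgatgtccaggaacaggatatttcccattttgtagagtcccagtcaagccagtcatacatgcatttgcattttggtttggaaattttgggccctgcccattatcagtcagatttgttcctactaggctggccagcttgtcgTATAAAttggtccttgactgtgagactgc
Sprr2e promoter, chr3:92351923-92352142, plus strand: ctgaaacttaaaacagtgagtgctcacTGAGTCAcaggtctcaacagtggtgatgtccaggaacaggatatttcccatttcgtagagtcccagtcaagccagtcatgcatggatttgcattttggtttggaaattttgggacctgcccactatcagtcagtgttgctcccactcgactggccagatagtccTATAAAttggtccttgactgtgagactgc
Sprr2f promoter, chr3:92364967-92365186, plus strand: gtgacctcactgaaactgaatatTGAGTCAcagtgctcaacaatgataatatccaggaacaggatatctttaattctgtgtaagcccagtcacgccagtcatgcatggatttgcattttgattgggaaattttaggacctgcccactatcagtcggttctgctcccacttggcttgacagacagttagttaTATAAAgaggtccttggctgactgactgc
Sprr2h promoter, chr3:92385465-92385684, plus strand: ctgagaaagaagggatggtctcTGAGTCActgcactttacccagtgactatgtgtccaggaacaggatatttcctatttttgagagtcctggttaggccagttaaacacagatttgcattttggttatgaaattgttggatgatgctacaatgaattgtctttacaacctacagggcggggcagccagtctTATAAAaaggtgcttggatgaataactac
Ivl promoter, chr3:92573736-92573955, minus strand: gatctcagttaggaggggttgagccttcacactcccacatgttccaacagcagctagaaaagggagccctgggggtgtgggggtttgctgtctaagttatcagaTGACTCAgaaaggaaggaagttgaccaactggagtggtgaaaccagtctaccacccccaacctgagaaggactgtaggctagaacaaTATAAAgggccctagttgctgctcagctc

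In each of the 6 Sprr2 genes with both motifs, which include Sprr2b and Sprr2k, the TATA motif began 29 bases before the start and the outermost AP-1 motif between 193 and 198 bases before it. Sprr1a had AP-1 motifs at 146 and 116 bases and Ivl one at 116. The 250 bases before Sprr2d and Sprr2e were 90.3% identical, yet the Sprr2d probe read 10.9-fold higher on day 1 than on day 0 and the Sprr2e probe, which carries the shared run, had a log2 ratio of 0.58. Sprr2f and Sprr2e were 80.5% identical over these bases, and Sprr2h and Sprr2k 81.9%. The promoters of Lce1g, Lce1h, Lce1i, Lce3c and Sbsn held neither motif in this window, and those of Lce1g and Lce1i were 85.6% identical.

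Other genes of keratinocyte maturation were taken from lists. Of 19 transcription factors, 1 was at least 4-fold higher on day 1 than on day 0 and 3 lower, and on day 3 against day 0 the counts were 2 and 2, with a median log2 ratio of -0.55. Klf5, a factor of proliferating epithelia, read 0.180, 4.52 and 5.06 on days 0, 1 and 3 and was 28.0-fold higher on day 3 than on day 0, and 1.69 (log2) higher by its second probe. Grhl1, a grainyhead factor of epidermal genes, was 4.19-fold higher on day 3. Zfp750 and Ovol1, which act in late keratinocyte differentiation, were 6.15-fold and 4.25-fold lower on day 3 than on day 0, with a log2 ratio of -0.77 by the other Ovol1 probe, and Hopx 3.96-fold lower.

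Protease and inhibitor genes of the epidermis gave 3 of 18 at least 4-fold higher on day 1 and 3 of 20 on day 3, with none at least 4-fold lower and a day 3 median of -0.17. They were Slpi, a secreted leukocyte protease inhibitor, at 46.4-fold on day 3 against day 0, Serpinb5, a serpin, at 9.99-fold and Cst6, an inhibitor of cathepsins in the epidermis, at 8.84-fold. The second probes of Slpi and Cst6 gave log2 ratios of -1.79 and -0.56. Serpinb5 had a dim day 0 level of 0.0191, where the lowest well above background was 0.0114. The alternative settings were run gene by gene for members only. Prss8, the gene of prostasin, and Stfa3 were 3.81-fold and 3.45-fold lower. Of 12 lipid enzyme genes, 1 was at least 4-fold higher on day 1, the lipoxygenase Aloxe3 at 4.27-fold, and on day 3 none of 13, with a median of 0.78. The day 0 level of Aloxe3 was dim too, at 0.0271. Sult2b1, a cholesterol sulfotransferase, Cyp4f39 and Ugcg, a ceramide glucosyltransferase, were 3.03-fold, 2.49-fold and 2.46-fold higher on day 3 than on day 0. Of 12 desmosome genes none was at least 4-fold higher or lower, and their median was 0.89 on day 3 against day 0. These counts go by the brightest probe, and of 3 probes of Dsc2 that one had a log2 ratio of 0.81 on day 3 and another 3.61. Desmoplakin, Dsp, was 2.30-fold and the plakophilin gene Pkp1 2.26-fold higher on day 3, Dsg2 and Jup were 2.16-fold and 2.07-fold higher (the Dsg2 probes ranged from -0.16 to 1.48 on the log2 scale), and Dsg3, a desmoglein of stratified epithelia, was 3.34-fold lower.

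In the list of other genes of the epidermal differentiation complex, mostly S100 calcium-binding protein genes, 4 of 20 were at least 4-fold higher on day 1 than on day 0 and 2 lower, and on day 3 against day 0 these counts were 5 and 2 of 19, with a median of 0.18. S100a6 read 2.99, 186 and 272 on days 0, 1 and 3, and S100a14 was 33.5-fold higher on day 3 than on day 0. S100a7a, whose day 0 signal did not clear background, was 75.5-fold higher on day 3 than the lowest day 0 level well above background. S100a4 was 7.05-fold higher. The 2 lower genes were Smcp and S100a9, 8.58-fold and 6.73-fold lower on day 3 than on day 0.

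Markers of stratified epithelia were measured beside the members. Of 16 keratinocyte markers, 14 were well above background on each day, and their summed level was 4.34, 6.46 and 5.00 on days 0, 1 and 3. Dsg1a and Dsc3, desmosomal cadherins of stratified epithelia, were not well above background on any day. Of 14 markers tested, 1 was at least 4-fold higher on day 1 than on day 0, namely the basal keratin Krt5, which read 0.327, 1.86 and 1.09. On day 3 against day 0 it was 1 again, Krt6b, a keratin of activated keratinocytes, at 5.28-fold from a dim 0.0402. Other such keratins of the list, Krt6a, Krt16 and Krt17, had log2 ratios of -0.67, -0.08 and 0.25. Krt14 read 0.511, 0.582 and 0.576, Krt1 0.494, 0.447 and 0.452, and Krt10 1.36, 2.05 and 1.03, and Trp63, the master factor of stratified epithelia, 0.0482, 0.0586 and 0.102 by the brightest of its 3 probes, whose day 3 log2 ratios ran down to -0.29. Of 11 urothelium markers all were well above background on each day, with a summed level of 3.18, 3.40 and 3.14. That sum is led by Gata3 at 1.77, 0.869 and 0.860 and, on days 1 and 3, by Krt5. Upk1a, second on day 0, read 0.600, 0.263 and 0.310. Upk3b, which is also a mesothelial gene, was 15.5-fold higher on day 3 than on day 0. The 14 proximal tubule markers summed to 1335, 245 and 28.1. All 14 were at least 4-fold lower on day 3 than on day 0, and all were well above background on each day. Collecting duct markers summed to 57.5, 14.9 and 9.30, with 8 of 12 at least 4-fold lower and 1 higher on day 3 than on day 0. Mesothelium markers summed to 3.68, 6.27 and 39.0, with 3 of 8 at least 4-fold higher and 1 lower on day 3. Msln and Krt19 led that sum on day 3 at 17.4 and 20.4, while Wt1, Gpm6a and Rspo1 were 3.18-fold, 7.02-fold and 2.25-fold lower than on day 0. Macrophage markers summed to 14.2, 10.8 and 17.3, mostly Lyz2 at 12.03, 6.12 and 13.4, and 1 of 9 was at least 4-fold higher on each day, Cd68 at 12.2-fold on day 1 and 5.07-fold on day 3. What part these cell types had in the values of the members was not tested.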

How the data were processed

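RNA of 3 samples, 1 each from days 0, 1 and 3, was hybridised to 1-colour Agilent arrays. Per the file headers, Feature Extraction 10.5.1.1 measured the spots on a design placed on mm9, and version 9.1 is the one in the submitters' processing notes. Processed signal, as deposited, is an intensity, background subtracted and detrended within each array. Flags of another kind, 0 or 1, mark spots well above background, saturated or outlying, per the file headers. The authors' value table holds a ratio, the processed signal over the 75th percentile of the array: on every array its 43379 values differed from that by at most 0.001, with column medians of 0.187, 0.162 and 0.151.

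Here the log2 ratio to that percentile was used. Outlier spots were left out (94, 102 and 85 non-control spots), and no non-control spot was saturated. Spots of a probe were averaged, and a gene, by the array's gene name, stood by its brightest probe on average. Genes well above background on 1 array of a comparison were counted from a log2 ratio of 2, a 4-fold difference. A dim side was set to the lowest signal well above background (0.0114, 0.0106 and 0.00669) or its own if higher, giving "at least" values. Such values hold only under the deposited background subtraction. Counting was tested on simulated data in which only genes above a set day 0 level were changed and every spot passed as well above background. That check therefore did not cover dim day 0 readings or the "at least" values. Members with a log2 ratio of at least 1 in any comparison are named with all values. Of each list up to 5 genes with the largest day 3 ratio are named, plus markers and Tgm2. Kprp and Flg2 come from the span of the cluster, and Dsc2 and S100a9 were named after their values were seen. Members and lists were chosen with earlier results of these data known. RefSeq's table matched 41 member genes by accession and 1 by symbol. Tools were Python 3.11.15, pandas 2.3.3, Biopython 1.88 and limma 3.58.1 in R 4.3.3, for normexp (offset 50) and quantile normalization. A low number of arrays limits the precision.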

Additional observations from a re-analysis of the deposited data

How the results depend on the processing

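No paired analysis was possible because each day had 1 array, and for the same reason no array could be left out. There were 12 alternatives, 10 of them at the 4-fold limit. The count of members at least 4-fold higher ran from 7 (normexp) to 11 on day 1 and from 10 to 12 on day 3 against day 0 over those 10, beside 10 and 11. Counts of lower members were small: on day 1 against day 0 there was 1, and 0 with the median of the spots or spike-in controls as scale; on day 3 against day 0 there were 0, and 1 with the reference genes; on day 3 against day 1 there were 2, with 1 under median scaling, quantile normalization, reference genes or normexp and 0 with spike-in controls. Higher members of that last comparison numbered 3, with 4 under the median, quantiles or spike-in controls and 2 under normexp or the mean of the probes. With a 2-fold limit, 3, 3 and 3 members were lower in the comparisons of day 1 with day 0, day 3 with day 0 and day 3 with day 1, and 7 were higher in the last. At 8-fold, 0 were lower on day 1 and, on day 3 against day 1, 0 higher and 0 lower. The median of the members turned to -0.052 with reference genes and -0.0021 with normexp on day 1 against day 0, and to -0.023 with normexp on day 3 against day 1 (0.10 before). Among named genes, Lce1g had log2 ratios of 1.38 and 2.49 on days 1 and 3 against day 0 as the mean of its probes, and Ppl 1.51 on day 3. With normexp, Lce1i and Lce3c had 1.72 and 1.80 on day 1, Sprr2h 4.50 on day 1 and 2.66 on day 3, and Ivl 2.58 on day 3. Evpl on day 1 was at -1.95 with spike-in controls. No called member changed sign under these 10. The number of arrays limits every value, and dim readings such as those of Ivl, Sprr2h and Lce1h on day 0 rest near background.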
